A study of Mus musculus with 14 samples.

Results

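The genes described here are 8 regulators that mark the inner cell mass of the mouse blastocyst and the precursors of germ cells: Zfp42, Dppa3, Prdm14, Prdm1, Tfap2c, Tcl1, Dppa2 and Dppa4. They were taken by symbol from a table of read counts for 24015 gene names, which held all 8, and all 8 were among the 16247 genes that passed the filter on low counts. The study asked whether epiblast stem cells (EpiSC), the primed form of pluripotent cell, return to the naive form of embryonic stem cells (ESC) when Mll1 is inhibited. RNA was sequenced from 14 cultures, 2 for each of 7 groups, described by the submitters as biological duplicates. ESC and EpiSC both carry the label CD1/JF1 (a cross of 2 mouse strains) and are labelled as derived from blastocysts. ESC grew on feeder cells in GMEM with leukemia inhibitory factor (LIF) and 15% serum replacement. EpiSC grew in Knockout DMEM with 20% serum replacement and 10 ng/ml bFGF. EpiSC of the same genotype label were given 100 µM MM401 together with LIF for 3 days (MM401 day 3) or for 6 days (MM401 P2, at passage 2). The reverted lines (rES) carry a different genotype label, CD1-deltaTSIX/JF1, and were held in LIF medium with 25 µM MM401 once past passage 3. They were sampled at passage 6, at passage 30, and at passage 30 without MM401. EpiSC moved to LIF medium without MM401 were not analysed here, so LIF, the change of medium and the inhibitor cannot be told apart there. Likewise rES and the other groups differ in genotype label as well as in treatment, and the number of independent lines behind each group is not stated.

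Naive pluripotency is the state of the early epiblast before implantation, held in culture by LIF, and primed pluripotency is the state after implantation, held by FGF and activin. In the embryo a few cells of the primed epiblast are set aside as primordial germ cells when BMP signals switch on Prdm1, Prdm14 and Tfap2c, which silence the somatic programme and restore genes of the inner cell mass. The same regulators recur in naive stem cells, where PRDM14 represses the de novo DNA methyltransferases and FGF receptors. DPPA2 and DPPA4 bind each other and chromatin through their SAP domains and prime developmental and cleavage-stage genes, and DPPA3 (also called Stella) shields the maternal genome from demethylation in the zygote.

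Libraries held 20831588 to 116086115 counts, with the MM401 day 3 and P2 libraries the deepest (74952496 counts or more in each). Counts of the 8 genes ran from 72 (Dppa3 in rES passage 6 replicate 2) to 37840 (Zfp42 in MM401 day 3 replicate 2), and the precision of Dppa3 is therefore the lowest. Counts of Rn45s, a ribosomal RNA precursor, took 1.39% to 1.9% of the MM401 day 3 and P2 libraries and 0.35% to 0.911% of the others, except rES passage 30 replicate 2 (2%, against 0.548% in replicate 1). The chi-square per degree of freedom between duplicates was largest in rES passage 30 (16.6), in a sum that includes Rn45s and grows with depth. The correlation of log2 CPM between duplicates was 0.9924 there, 0.9926 in rES passage 30 without MM401 and 0.9936 in ESC. Duplicates of ESC, rES passage 6 and EpiSC had chi-squares of 1.28, 1.35 and 1.54, little more than counting alone would give. Standard errors and p-values rest on a spread fitted for each gene over all 14 libraries, so they belong to no group alone. The duplicates of these groups add little spread between cultures to them. Of 19 other inner cell mass and naive genes all 19 were higher in ESC than in EpiSC, where 37% of all tested genes were called higher. That list was made with earlier results of these data known, so it is no independent check of the naive state. All 16 tested primitive endoderm markers were also higher in ESC. Fgf5 and Otx2, common markers of the primed state that were chosen after their values were seen, were lower in EpiSC (7.61 and 31.6 CPM) than in ESC (21.1 and 111 CPM), the opposite of what their use as markers would give. The inhibitor acts on the Mll1 protein, so the level of its gene Kmt2a does not check the treatment. Kmt2a stood at 148 CPM in EpiSC, 103 at MM401 day 3, 165 in rES passage 30 and 113 in rES passage 30 without MM401. All cultures are bulk samples, in which fewer cells of a type and less RNA per cell cannot be told apart.

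All 8 genes were higher in ESC than in EpiSC, where 37% of all tested genes were called higher and 74.5% were called in either direction. Most of the 8 were also higher than in EpiSC after MM401, and Dppa3 was the exception. Levels are given as CPM, read counts scaled to library size with TMM factors, and a gene is called different at a Benjamini-Hochberg adjusted p under 0.05 over all 16247 genes (quasi-likelihood F test of edgeR, two-sided), with the standard error after ±. The log2 fold changes of the 8 genes in ESC were 4.22 ± 0.06 for Tcl1, 3.83 ± 0.05 for Zfp42, 2.99 ± 0.07 for Dppa4, 2.35 ± 0.09 for Dppa2, 1.68 ± 0.09 for Prdm1, 1.58 ± 0.06 for Prdm14, 1.41 ± 0.06 for Tfap2c and 1.06 ± 0.13 for Dppa3. Their median was 2.02, and the median over all tested genes was 0.00. In each of these 8 genes both ESC libraries lay above both EpiSC libraries. The share of all tested genes separated in this way was not counted.

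**Figure D1:**
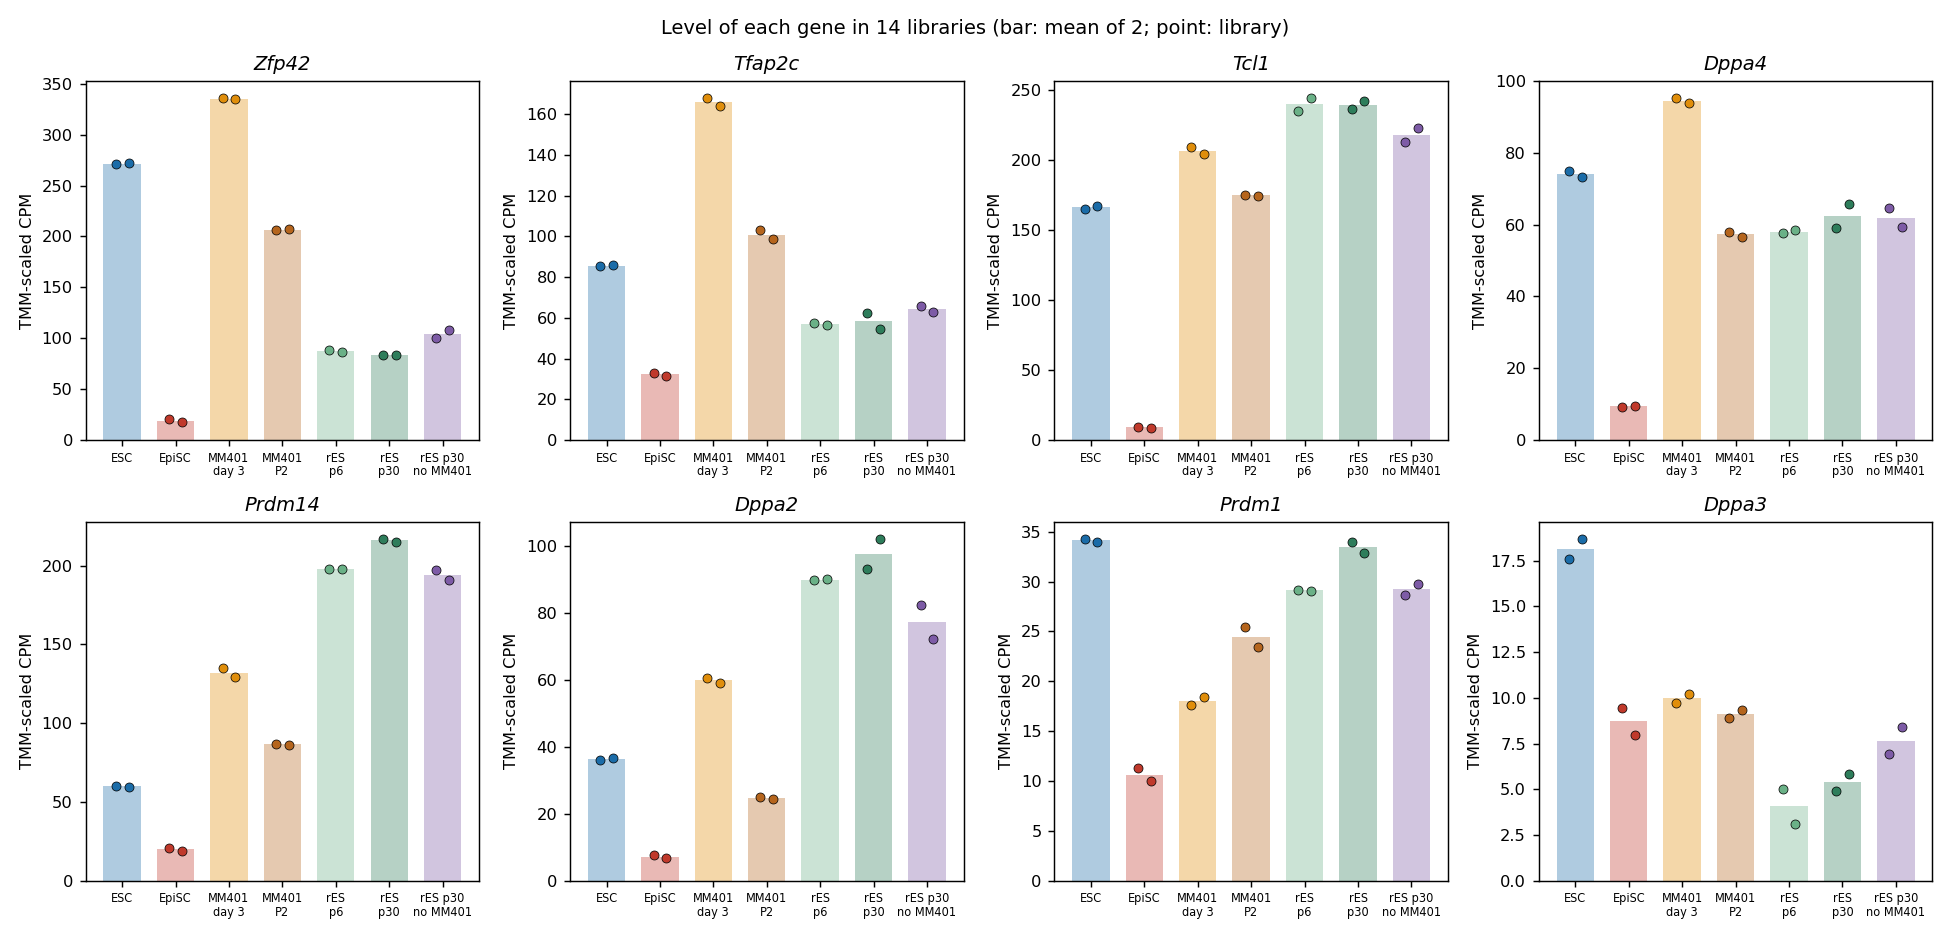
Level of each of the 8 genes (TMM-scaled CPM, linear axis from 0) in the 7 groups, with a bar for the mean of 2 libraries and a point for each library. Zfp42 and Tfap2c peaked at MM401 day 3 (336 and 166 CPM), Prdm14 and Dppa2 were highest in rES passage 30 (216 and 97.4 CPM), and Dppa3 was highest in ESC (18.1 CPM) and lowest in rES passage 6 (4.07 CPM).

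Zfp42 encodes REX1, a zinc finger relative of YY1 and a classic marker of the inner cell mass and naive cells. It stood at 20.2 and 17.9 CPM in the EpiSC libraries, 271 and 272 in ESC, 336 and 335 at MM401 day 3, and 206 and 207 at MM401 P2. In the reverted lines it stood at 88.8 and 86.4 CPM at passage 6, 83.9 and 83.4 at passage 30, and 99.8 and 108 at passage 30 without MM401. The order was thus MM401 day 3, ESC, MM401 P2, rES without MM401, rES passage 6, rES passage 30 and EpiSC, and only rES passage 6 and passage 30 were neighbours that did not differ by the test (passage 30 against passage 6, -0.07 ± 0.05, adjusted p = 0.33). The reverted lines at passage 30 held 30.8% of the ESC level, which on a log2 scale from EpiSC (0) to ESC (1) is a position of 0.56.

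The promoter of Zfp42 is known to be driven through an octamer, the site bound by POU factors such as OCT4 (gene Pou5f1), and the sequence tables allow this to be looked at for 3 of the 8 genes. The 250 bases before the transcription start of Zfp42, Prdm1 and Tcl1 follow, 5′ to 3′ on the strand of the gene, from RefSeq on build GRCm38.p6 (the counts were made on mm9). They lie on the minus strand at chr8:43307010-43307259, chr10:44458749-44458998 and chr12:105222738-105222987, upstream of the gene. Capitals mark matches to 8 motifs searched on both strands. These were ATTTGCAT (octamer), ACAAAG (SOX), TCAAGGTCA (ESRRB), TTCNNNGAA (STAT), GGGNGTGG (KLF), GCCNNNGGC (AP-2), CACGTG (E-box) and TCCCGC (E2F).
Zfp42: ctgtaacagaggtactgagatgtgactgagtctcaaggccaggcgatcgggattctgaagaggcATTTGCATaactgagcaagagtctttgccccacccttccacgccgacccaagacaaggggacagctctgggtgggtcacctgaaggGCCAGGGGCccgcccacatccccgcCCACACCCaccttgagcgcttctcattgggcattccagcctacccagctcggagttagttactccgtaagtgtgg
Prdm1: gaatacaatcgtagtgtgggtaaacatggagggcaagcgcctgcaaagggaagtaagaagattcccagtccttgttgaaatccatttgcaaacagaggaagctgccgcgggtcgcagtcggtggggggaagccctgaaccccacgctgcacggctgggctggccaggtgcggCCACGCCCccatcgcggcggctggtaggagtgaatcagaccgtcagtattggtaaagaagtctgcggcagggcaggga
Tcl1: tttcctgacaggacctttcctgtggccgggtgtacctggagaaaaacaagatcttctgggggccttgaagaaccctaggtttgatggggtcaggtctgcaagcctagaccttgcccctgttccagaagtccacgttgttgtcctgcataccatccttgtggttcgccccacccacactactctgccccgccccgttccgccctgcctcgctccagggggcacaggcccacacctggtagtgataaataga
The Zfp42 promoter holds the octamer on its own strand, 186 to 179 bases before the start, a word found in 1.6% of 32851 RefSeq promoters of the same length. It also holds an AP-2 word 100 to 92 bases before the start (13.7% of promoters) and, on the other strand, a KLF word 75 to 68 bases before it (15.9%). The Prdm1 promoter holds 1 KLF word, 78 to 71 bases before the start, and the Tcl1 window holds none of the 8 words. The SOX, ESRRB, STAT, E-box and E2F words are in 16.5%, 0.387%, 7.02%, 6.02% and 16.9% of promoters and in none of these 3 windows. The 3 windows hold 9, 15 and 7 CpG in the order Zfp42, Prdm1 and Tcl1. A match is a word in a sequence, and no binding was measured.

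Tcl1, a coactivator of the AKT kinases that promotes growth of stem cells, had the widest span of the 8 genes, 26.9-fold between its highest and lowest group means. The EpiSC libraries held 9.06 and 8.79 CPM, ESC 165 and 167, MM401 day 3 209 and 204, and MM401 P2 175 and 174. In rES it held 235 and 244 CPM at passage 6, 236 and 242 at passage 30, and 213 and 223 without MM401. Each MM401 and rES library lay above both ESC libraries, and rES passage 30 was higher than ESC by 0.53 ± 0.04. Neighbours in its order that did not differ by the test were rES passage 6 and passage 30 (adjusted p = 0.949), rES without MM401 and MM401 day 3 (adjusted p = 0.0731), and MM401 P2 and ESC (adjusted p = 0.0768). The last 2 pairs were called with scaling to total counts (adjusted p = 0.0123 and 0.0439), and the first of them also in 1 draw of counts thinned to the depth of the shallowest library and without replicate 1 of the cells without MM401 (0.0124 and 0.0328).

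Of the germ cell specification trio, Prdm14 rose furthest beyond its ESC level. It stood at 21 and 19 CPM in EpiSC, 59.8 and 59.7 in ESC, 135 and 129 at MM401 day 3, and 86.9 and 86.4 at MM401 P2. In rES it reached 198 CPM in both passage 6 libraries, 217 and 215 at passage 30, and 197 and 191 without MM401. Each MM401 and rES library lay above both ESC libraries, and the mean of rES passage 30 was 361% of that of ESC (1.85 ± 0.05 on the log2 scale, edgeR adjusted p = 6.89e-31). Only rES passage 6 and rES without MM401 were neighbours that did not differ by the test (adjusted p = 0.667). The call of rES passage 30 above passage 6 (0.13 ± 0.04, adjusted p = 0.0187) was lost with scaling to total counts (0.08) and in thinned counts (0.052). It was also lost when any library of either group was left out.

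Tfap2c, which encodes the factor AP-2 gamma of germ cell precursors and trophoblast, lay below its ESC level in rES. Its EpiSC libraries held 32.8 and 31.5 CPM, ESC 85.4 and 85.9, MM401 day 3 168 and 164, and MM401 P2 103 and 98.7. In rES it held 57.5 and 56.5 CPM at passage 6, 62.3 and 54.4 at passage 30, and 65.7 and 63 without MM401. The day 3 level was 194% of that of ESC, while the rES passage 30 level was 68.2% of it, below ESC by 0.55 ± 0.05 and above EpiSC by 0.86 ± 0.06. The 3 rES groups, next to each other in its order, did not differ between neighbours by the test (adjusted p = 0.0781 and 0.691), but rES without MM401 was above rES passage 6 (0.17 ± 0.06, adjusted p = 0.0118), a call lost without rES passage 6 replicate 2 (0.0929), without replicate 1 of the cells without MM401 (0.104) and in thinned counts (0.0544). Per length of transcript, Prdm14 over Tfap2c was 0.772 to 1.12 in the ESC, EpiSC, day 3 and P2 libraries and 3.84 to 5.05 in the 6 rES libraries.

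Prdm1 encodes BLIMP1, the repressor that opens germ cell specification and that also marks visceral endoderm and plasma cells. It stood at 11.3 and 9.99 CPM in EpiSC, 17.6 and 18.4 at MM401 day 3, 25.5 and 23.4 at MM401 P2, 29.2 and 29.1 in rES passage 6, and 34 and 32.9 in rES passage 30. Without MM401 it stood at 28.7 and 29.8 CPM, and in ESC at 34.3 and 34. It was the only one of the 8 genes called higher both at MM401 day 3 against EpiSC (0.76 ± 0.08) and at P2 against day 3 (0.44 ± 0.06). The second of these was 0.20 (adjusted p = 0.0731) in the thinned counts. Neighbours that did not differ by the test were ESC and rES passage 30 (-0.03 ± 0.07 for the latter against the former, adjusted p = 0.739), rES passage 30 with and without MM401 (adjusted p = 0.0645, but 0.0446 with RLE size factors and 0.0496 without MM401 P2 replicate 2), and rES without MM401 and rES passage 6 (adjusted p = 0.989). The ends of that run did differ, rES passage 6 being below ESC (-0.23 ± 0.08, adjusted p = 0.00787).

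Dppa3 was not called higher than EpiSC in any MM401 or rES group. It stood at 9.47 and 7.97 CPM in EpiSC, 17.6 and 18.7 in ESC, 9.73 and 10.2 at MM401 day 3, and 8.9 and 9.36 at MM401 P2. In rES it held 5.03 and 3.12 CPM at passage 6, 4.91 and 5.84 at passage 30, and 6.93 and 8.38 without MM401. All 4 rES libraries with MM401 lay below both EpiSC libraries, and the fall against EpiSC was 1.11 ± 0.16 at passage 6 and 0.70 ± 0.15 at passage 30 on the log2 scale. At day 3 and at P2 it was not called against EpiSC (0.19 ± 0.12 and 0.07 ± 0.12, adjusted p = 0.148 and 0.632), although the thinned counts gave 0.42 at day 3 (adjusted p = 0.0327). In its order MM401 day 3, MM401 P2, EpiSC and rES without MM401 followed ESC with no difference between neighbours by the test (adjusted p = 0.286, 0.632 and 0.234). The first of these pairs was called in the thinned counts (-0.44, adjusted p = 0.034) and the last with scaling to total counts (-0.34, adjusted p = 0.0365). The ends of that run differed, rES without MM401 being below MM401 day 3 (-0.38 ± 0.13, adjusted p = 0.0081), a call lost without replicate 1 of the cells without MM401 (-0.25, adjusted p = 0.181). The lowest pair, rES passage 30 and passage 6, was not called either (adjusted p = 0.0904), but was called without rES passage 6 replicate 1 (adjusted p = 0.00826). How multi-mapped reads were treated is not stated, so reads that a gene shares with a near-identical copy could be lost or misplaced.

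Dppa2 and Dppa4 lie side by side on chromosome 16, next to each other in the order of protein-coding genes in RefSeq. Dppa2 stood at 7.51 and 6.69 CPM in EpiSC, 36 and 36.7 in ESC, 60.6 and 58.9 at MM401 day 3, and 25 and 24.3 at MM401 P2. It then stood at 89.7 and 90 CPM in rES passage 6, 92.9 and 102 in passage 30, and 82.3 and 72.1 without MM401. Dppa2 was thus highest in rES, at 268% of its ESC level at passage 30, and of its neighbours only rES passage 30 and passage 6 did not differ by the test (adjusted p = 0.139, but 0.0358 without rES passage 30 replicate 1). The next pair, rES without MM401 against rES passage 6 (-0.22 ± 0.06, adjusted p = 0.00242), was not called without replicate 2 of the cells without MM401 (-0.13, adjusted p = 0.153).

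Dppa4 stood at 9.26 and 9.37 CPM in EpiSC, 75.1 and 73.3 in ESC, 95.3 and 93.9 at MM401 day 3, and 58 and 56.6 at MM401 P2. It held 57.6 and 58.4 CPM in rES passage 6, 59.2 and 65.7 in passage 30, and 64.6 and 59.4 without MM401. Past day 3 its group means kept within 57.3 to 62.4 CPM, and rES passage 30, rES without MM401, rES passage 6 and MM401 P2 did not differ as neighbours (adjusted p = 0.955, 0.198 and 0.767). Across that run rES passage 30 was above MM401 P2 by 0.12 ± 0.05 (adjusted p = 0.0332), a call lost without rES passage 30 replicate 2 (0.512), without MM401 P2 replicate 2 (0.123), with no filter (0.0973) and in the fit of the 4 libraries compared (0.0831). Per length, Dppa2 over Dppa4 was 0.289 and 0.302 in ESC, 0.49 and 0.431 in EpiSC, 0.384 and 0.379 at day 3, and 0.26 in both P2 libraries. The ratio was 0.931 to 0.949 in the 4 rES libraries with MM401 and 0.77 and 0.734 without it, so all 6 rES libraries lay above the other 8. A test of this ratio between groups of 2 libraries was not run.

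**Figure D2:**
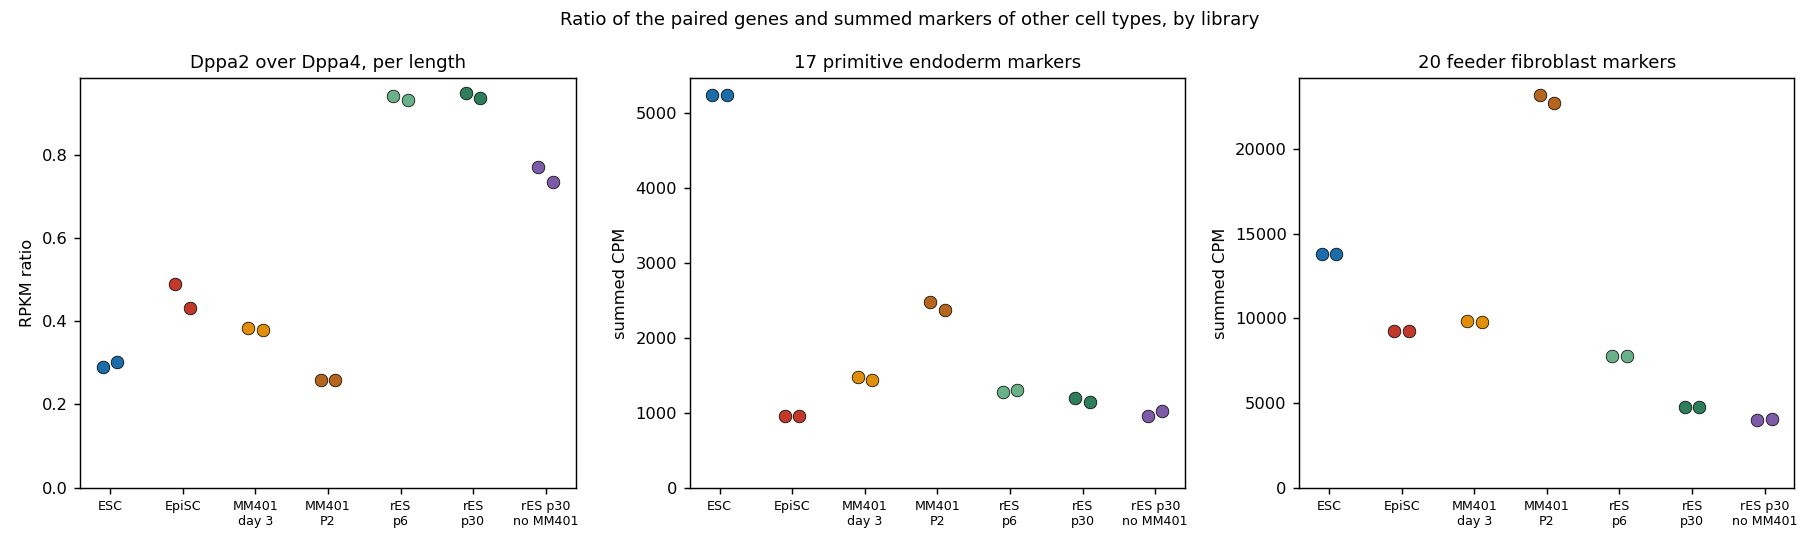
Left, ratio of Dppa2 to Dppa4 per length of transcript (ratio of RPKM, no unit) in each library. Middle and right, summed CPM of 17 primitive endoderm and 20 feeder fibroblast markers in each library, with 2 points per group. The 4 rES libraries with MM401 have ratios of 0.931 to 0.949, feeder markers peak at MM401 P2 (23200 and 22700 CPM) and endoderm markers in ESC (5230 and 5240 CPM).

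Levels of different genes were compared only per length, as RPKM, the CPM divided by exon length in kilobases from GENCODE M21. In ESC the order of mean RPKM was Zfp42 (144), Tcl1 (114), Dppa4 (50.2), Tfap2c (26.1), Prdm14 (23.3), Dppa3 (21.8), Dppa2 (14.8) and Prdm1 (6.36). EpiSC held all 8 at mean levels of 1.98 to 10.5 RPKM, with Dppa3 the highest by mean. In EpiSC replicate 2 Tfap2c (9.6), Dppa3 (9.56) and Zfp42 (9.52) were level, so this rank is not resolved. In rES passage 30 Tcl1 (164) and Prdm14 (84.1) led, Zfp42 (44.5), Dppa4 (42.2) and Dppa2 (39.8) followed, and Tfap2c (17.8), Dppa3 (6.45) and Prdm1 (6.23) were the lowest.

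The steps from EpiSC to the reverted lines were then tested one at a time. At MM401 day 3 against EpiSC 7 of the 8 genes rose, where 38.7% of all tested genes were called higher and 76.6% called in all. Of the called genes 50.6% were higher, or 38.6% with scaling to total counts. Tcl1 (4.53 ± 0.06) and Zfp42 (4.14 ± 0.05) rose the most, and Prdm14 (2.72 ± 0.05), Tfap2c (2.37 ± 0.05), Dppa2 (3.07 ± 0.08) and Dppa4 (3.34 ± 0.07) each rose by over 2 on the log2 scale. The share of Rn45s was 1.9% and 1.68% in the day 3 libraries against 0.435% and 0.35% in EpiSC, and its part in these values was not tested. The same 7 were called higher at MM401 P2 against EpiSC, where 42.1% of all genes were called higher and 75.9% in all (55.5% of the called genes were higher, or 45.3% with scaling to total counts). They were also higher in rES passage 6 (38.7% of all genes higher, 73.8% called) and in rES passage 30 (38% higher, 76.3% called), and there Dppa3 was called lower (35.1% and 38.3% of all genes lower). Without MM401 the 7 were again higher than in EpiSC (38.5% of all genes higher, 76.5% called) and Dppa3 was not called. These comparisons share the EpiSC libraries.

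From day 3 to P2 the pattern turned, with 6 of the 8 genes lower at P2 and 1, Prdm1, higher. Of all tested genes 33.3% were called lower and 37.5% higher (70.8% in all). Dppa2 fell the most (-1.28 ± 0.05), followed by Tfap2c (-0.72 ± 0.04), Dppa4 (-0.72 ± 0.05), Zfp42 (-0.70 ± 0.04) and Prdm14 (-0.61 ± 0.04), while Tcl1 fell by 0.24 ± 0.04. In the same libraries all 20 feeder fibroblast markers rose (median log2 fold change 1.37), and their summed level was 9840 and 9760 CPM at day 3 against 23200 and 22700 CPM at P2, with none of the 20 at 0 in any library. Their part in the result was not tested.

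**Figure D3:**
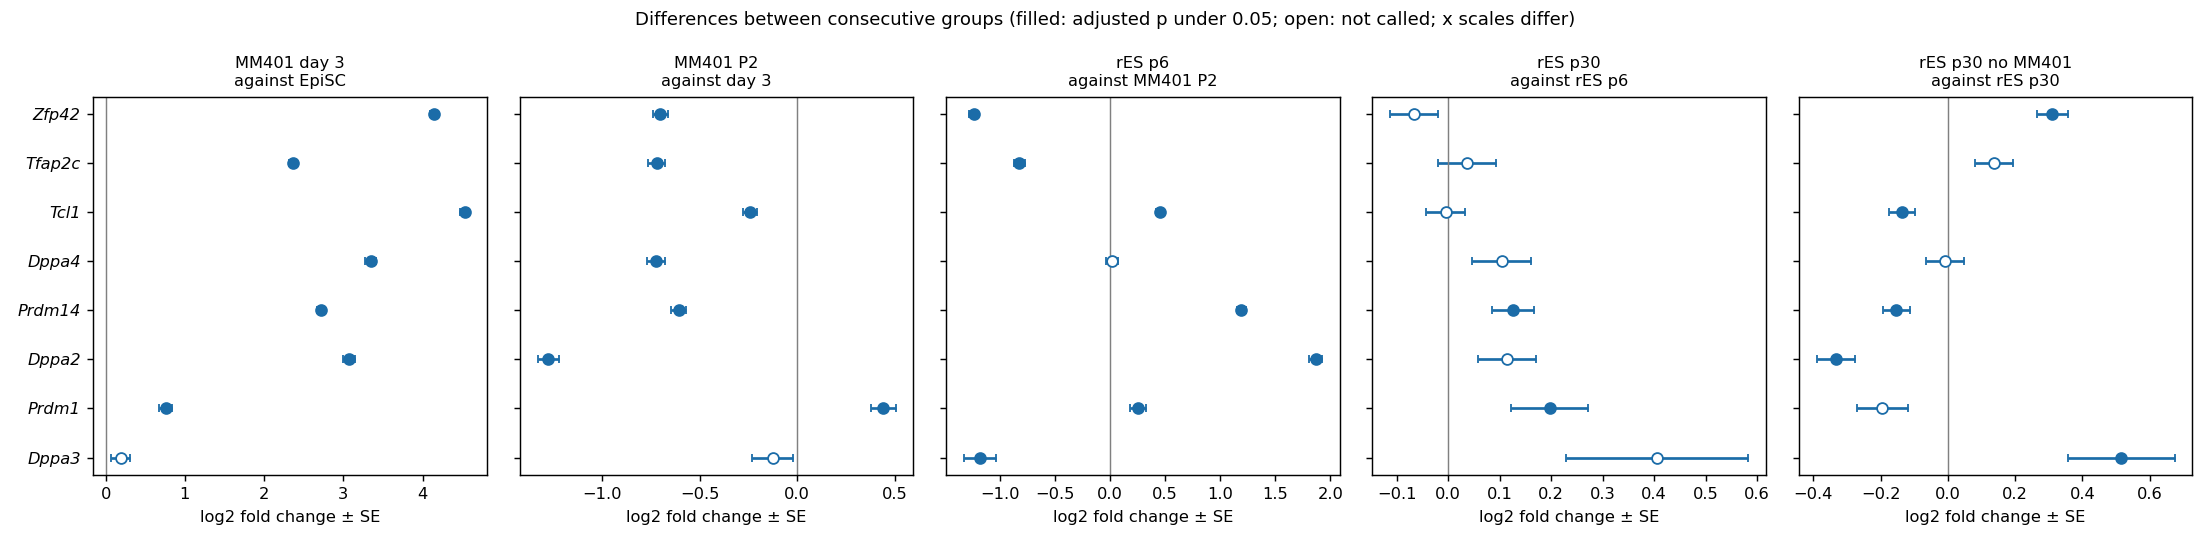
Log2 fold change with its standard error for the 8 genes in 5 successive comparisons, each panel with its own horizontal scale; filled points passed an adjusted p of 0.05 and open points did not. All genes but Dppa3 rose at day 3, all but Prdm1 lie below 0 from day 3 to P2, and the changes from rES passage 6 to passage 30 lie between -0.07 and 0.41.

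Between MM401 P2 and rES passage 6 the 8 genes split. Dppa2 (1.87 ± 0.06), Prdm14 (1.19 ± 0.04), Tcl1 (0.46 ± 0.04) and Prdm1 (0.26 ± 0.07) were higher in rES, Zfp42 (-1.24 ± 0.04), Dppa3 (-1.18 ± 0.15) and Tfap2c (-0.82 ± 0.05) were lower, and Dppa4 was not called (0.02 ± 0.05, adjusted p = 0.767). Of all tested genes 35.5% were called higher and 37.5% lower, 73% in all. This step also holds the change of genotype label and of MM401 dose, and the feeder markers were at 7780 and 7770 CPM in rES passage 6.

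Over the passages of the reverted line little was resolved. From passage 6 to passage 30 Prdm14 (0.13 ± 0.04, adjusted p = 0.0187) and Prdm1 (0.20 ± 0.08, adjusted p = 0.0493) were called higher and the other 6 genes were not called, against 11.3% of all tested genes called higher and 14.4% called lower (25.6% in all). Of the called genes 43.9% were higher, or 33.3% with scaling to total counts and 54.3% with RLE size factors. Neither call held with scaling to total counts (adjusted p = 0.08 and 0.104) or in thinned counts (0.052 and 0.107). Neither held when any 1 of the 4 libraries was left out (0.0539 to 0.104 for Prdm14 and 0.0893 to 0.181 for Prdm1), and Prdm1 was also not called without either ESC or either EpiSC library (0.0529 to 0.0623). Dppa3 (0.41 ± 0.18) was called without rES passage 6 replicate 1 (0.78, adjusted p = 0.00826). The changes of Dppa2 (0.12 ± 0.06) and Dppa4 (0.10 ± 0.06) were called without rES passage 30 replicate 1 (adjusted p = 0.0358 and 0.0331). Between the same groups all 20 feeder markers fell (median -0.91), from 7780 and 7770 CPM to 4750 and 4760 CPM in sum, and their part in these values was not tested.

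Between the passage 30 lines without and with MM401, 5 of the 8 genes were called different. Zfp42 (0.31 ± 0.05) and Dppa3 (0.51 ± 0.16, adjusted p = 0.0178) were higher without the inhibitor, and Dppa2 (-0.33 ± 0.06), Prdm14 (-0.15 ± 0.04) and Tcl1 (-0.13 ± 0.04) were lower, where 10.4% of all tested genes were called higher and 9.3% lower (19.7% in all). The shift of Dppa3 was not called without rES passage 30 replicate 1 (0.39, adjusted p = 0.205), without rES without MM401 replicate 2 (0.37, adjusted p = 0.242) or in the thinned counts (adjusted p = 0.0647). That of Tcl1 was not called in the fit of the 4 libraries compared (adjusted p = 0.0553), without rES passage 30 replicate 2 (0.091) or without replicate 1 of the cells without MM401 (0.122), and that of Prdm14 not without replicate 2 of the cells grown without MM401 (adjusted p = 0.0813). Tfap2c (0.14 ± 0.06) was not called, but was at 0.24 without rES passage 30 replicate 1 (adjusted p = 0.00712). Zfp42 and Dppa2 kept their call and direction under every alternative run.

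Set against ESC, the reverted lines had 3 of the 8 genes higher and 4 or 5 lower. In rES passage 30 Prdm14 (1.85 ± 0.05), Dppa2 (1.42 ± 0.06) and Tcl1 (0.53 ± 0.04) were higher, Dppa3 (-1.76 ± 0.14), Zfp42 (-1.70 ± 0.04), Tfap2c (-0.55 ± 0.05) and Dppa4 (-0.25 ± 0.06) were lower, and Prdm1 was not called. Of all tested genes 35.3% were called higher and 35.8% lower in that comparison (71.1% in all). At passage 6 the same 3 were higher (36.3% of all genes) and the other 5 lower (33% of all genes, 69.3% called), Dppa3 the furthest at -2.17 ± 0.15. Without MM401 the same 3 were higher (36.3% of all genes, 71.3% called) at 1.70 ± 0.05, 1.09 ± 0.06 and 0.39 ± 0.04, and 5 were lower (35% of all genes), Prdm1 among them at -0.22 ± 0.08, or at -0.20 (adjusted p = 0.0644) without replicate 1 of those cells. These comparisons share the ESC libraries. Without rES passage 30 replicate 2, in which Rn45s was high, the calls of the 8 genes in rES passage 30 against ESC and against EpiSC were the same. MM401 day 3 differed from ESC in another way, with 6 of the 8 genes higher (35.6% of all genes, 71.2% called), led by Prdm14 (1.14 ± 0.04) and Tfap2c (0.95 ± 0.05), and only Prdm1 (-0.92 ± 0.07) and Dppa3 (-0.86 ± 0.11) lower (35.6% of all genes). At MM401 P2 2 genes were higher (41% of all genes), Prdm14 (0.54 ± 0.05) and Tfap2c (0.23 ± 0.05), 5 were lower (33.6% of all genes, 74.7% called), and Tcl1 was not called.

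**Figure D4:**
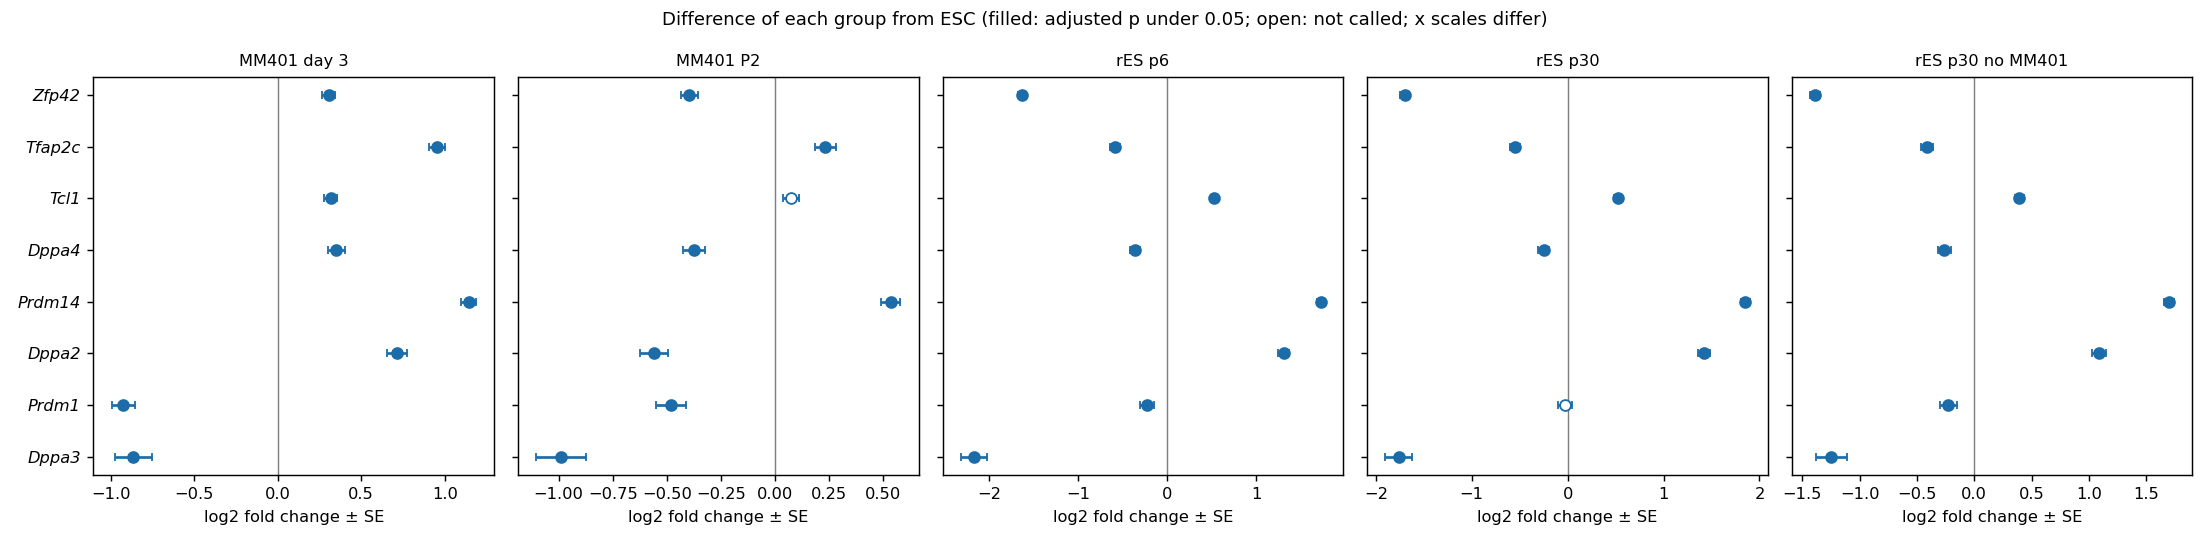
Log2 fold change with its standard error of the 8 genes in each MM401 and rES group against ESC, each panel with its own horizontal scale; filled points passed an adjusted p of 0.05. Prdm14 lies to the right of 0 in all 5 panels and Dppa3 to the left, while Zfp42 lies at 0.30 on day 3 and at -1.70 in rES passage 30.

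Other genes of the same programmes were described from lists made with earlier results of these data known. Of 19 further inner cell mass and naive genes, all 19 rose at MM401 day 3 against EpiSC (median 2.83), where 38.7% of all genes rose. Among them were Tfcp2l1 (3.87 ± 0.04), Jam2 (3.28 ± 0.04), Fbxo15 (3.11 ± 0.04) and Tbx3 (4.54 ± 0.06). From day 3 to P2 all 19 fell (median -0.68), where 33.3% of all genes fell, which is the direction of the 6 genes above. In rES passage 30 against ESC 15 were higher and 2 lower (median 0.55), where 35.3% of all genes were higher and 35.8% lower. Klf4 (1.94 ± 0.04) and Nanog (1.25 ± 0.04) were among the higher ones. Of the 8 genes described here Prdm14, Dppa2 and Tcl1 were also higher there, and Zfp42, Dppa3, Tfap2c and Dppa4 were lower.

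Of 15 further genes of germ cell specification and early germ cells, 10 rose and 4 fell at MM401 day 3 against EpiSC (median 0.44), where 38.7% of all genes rose and 37.9% fell. The receptor gene Kit (2.65 ± 0.05) and the alkaline phosphatase gene Alpl (1.92 ± 0.04) rose, and Lin28a fell by 1.53 ± 0.04. In rES passage 30 against ESC 5 were higher and 9 lower (median -0.31), where 35.3% of all genes were higher, near the share of the list, and 35.8% were lower. Bmp4, the signal that induces germ cell precursors in the embryo, was lower there (-2.21 ± 0.09, 59.2 CPM in ESC and 12.8 in rES), and Alpl was higher (0.95 ± 0.04). Nanos3, an early germ cell gene chosen here after its value was seen, stayed between 1.13 and 3.91 CPM in all group means.

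Later germ line genes, 14 in the list, rose in 12 cases at day 3 against EpiSC and fell in none (median 1.72). Of all tested genes 38.7% rose and 37.9% fell. Dazl rose from 12.4 to 153 CPM (3.62 ± 0.08) and Ddx4 from 1.62 to 20 CPM (3.62 ± 0.13). In rES passage 30 against ESC 10 were higher and 3 lower (median 2.05), with Dazl at 93.5 against 14 CPM. There 35.3% of all genes were higher and 35.8% lower.

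The 5 genes listed as repressed by PRDM14 moved differently in different comparisons. At day 3 against EpiSC Dnmt3b (-3.19 ± 0.04), Dnmt3a (-2.12 ± 0.04), Fgfr2 (-1.72 ± 0.11) and Fgfr1 were lower, 4 of 5, and Dnmt3l, the cofactor of the de novo enzymes, was higher (3.21 ± 0.05). Of all tested genes 37.9% were lower and 38.7% higher. From MM401 P2 to rES passage 6, where Prdm14 was also higher, 3 of the 5 were higher and 2 lower (median 0.22). In that step 35.5% of all genes were higher and 37.5% lower. Dnmt3l (4.12 ± 0.04, from 30.9 to 536 CPM), Dnmt3b (0.40 ± 0.05) and Dnmt3a were the higher ones, and Fgfr1 (-1.09 ± 0.04) and Fgfr2 (-1.46 ± 0.13) the lower. In rES passage 30 against ESC all 5 were lower (median -0.82), where 35.8% of all genes were lower. Dnmt3b stood at 37.4 against 335 CPM and Dnmt3l at 637 against 1070 CPM. The part of Prdm14 in these values was not tested.

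Cleavage-stage genes that DPPA2 and DPPA4 are known to help activate were low throughout. Of 11 listed, 10 were in the table and 5 passed the filter on counts, which a gene high in 1 group alone can pass. All 5 were called lower at MM401 day 3 than in EpiSC (median -1.45), where 37.9% of all genes were lower. All 5 were also higher in rES passage 30 than in ESC (median 3.62), where 35.3% of all genes were higher. Zfp352 had 0.261 CPM in ESC, 0.117 at day 3 and 5.82 in rES passage 30. Usp17lc had 0.0694, 0.0487 and 3.92 CPM there, and both were picked after their values were seen. Such genes passed the filter through the groups where they were higher. Both counts therefore depend in part on the filter, and no conclusion is drawn from them. Counts of such multicopy families are uncertain. Zscan4d had a group mean of 1.43 CPM in EpiSC, 0.522 at MM401 day 3, 0.134 at MM401 P2, 0.742 in ESC, 6.12 in rES passage 6, 9.21 in passage 30 and 5.18 without MM401. Zscan4d was lower at day 3 than in EpiSC (-1.46 ± 0.32), and without MM401 it was lower than in rES passage 30 with it (-0.83 ± 0.23, adjusted p = 0.00776). The part of Dppa2 and Dppa4 in these low levels was not tested.

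Partners and relatives of the 8 genes were read in the same comparison. Among 11 protein partners 9 were higher and 2 lower at day 3 against EpiSC (median 0.57). Of all tested genes 38.7% were higher and 37.9% lower there (76.6% called). Jarid2 (0.77 ± 0.03), a Polycomb partner, and Cbfa2t2 (0.58 ± 0.04), the corepressor that binds PRDM14, were among the higher partners. Of 25 family members 18 passed the filter, of which 7 were higher and 7 lower at day 3 (median -0.01), close to the 38.7% and 37.9% of all genes. The higher ones included Tfap2a (0.759 CPM in EpiSC and 5.71 at day 3), a close relative of Tfap2c, Yy1 (87.6 and 130 CPM), a relative of Zfp42, and Prdm16 (1.23 and 5.49 CPM). The lower ones included Prdm9 (10.1 and 4.28 CPM) and Mtcp1 (11.4 and 5.27 CPM), a relative of Tcl1, both chosen after their values were seen.

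Markers of other cell types were read beside these levels, because Prdm1 also marks visceral endoderm and Tfap2c trophoblast. The 17 primitive endoderm markers summed to 5230 and 5240 CPM in ESC, 950 and 954 in EpiSC, 1440 and 1480 at MM401 day 3, 2370 and 2480 at P2, and 1140 to 1300 in rES with MM401. Prdm1 was at 34.1 CPM in ESC and 33.4 CPM in rES passage 30. Of the 16 tested endoderm markers 15 were lower in rES passage 30 than in ESC (35.8% of all genes). At most 1 of the 17 was at 0 in any library. From day 3 to P2, where Prdm1 rose, 9 endoderm markers rose and 1 fell (37.5% and 33.3% of all genes). Lamb1 (568 and 914 CPM), Col4a1 (344 and 549) and Pdgfra (67.7 and 249) stood higher at P2. Gata4 (4.96 and 5.29 CPM), Sox17 (2.44 and 2.66) and Hnf4a (2.21 and 1.99) stood at like levels, and Sox7 was lower (16.6 and 7.99). These genes were singled out after their values were seen. All 20 feeder markers also rose in this step. The part of endoderm or feeder cells in the values of Prdm1 in ESC, rES passage 30 and P2 was not tested.

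Trophoblast markers, 11 in the list, summed to 121 and 122 CPM in ESC, 27 and 27.7 in EpiSC, 66.1 and 68 at day 3, 64.9 and 70.5 at P2, and 259 to 295 in the 6 rES libraries. Of the 10 that passed the filter 6 were called higher and 1 lower at day 3 against EpiSC, and 6 higher and none lower in rES passage 30 against EpiSC. Of all tested genes 38.7% and 38% were called higher in these comparisons, and 37.9% and 38.3% lower. Gata2 gave 176 CPM of the sum in rES passage 30 and 2.61 CPM in EpiSC, and Tead4 gave 69.3 and 7.58 CPM. The defining markers Cdx2 and Elf5 had group means of at most 0.673 and 0.536 CPM, and Prl3d1 was at 0 in every group mean but that of MM401 P2 (0.0314 CPM). At most 2 of the 11 were at 0 in any library. The 5 genes named were singled out after their values were seen. Tfap2c stood at 166 CPM at day 3, where this sum was 66.1 and 68 CPM, and at 58.4 CPM in rES passage 30, where the sum was 259 and 290 CPM. The part of such cells in these values was not tested. Of 9 neuroectoderm markers the sum was 795 and 804 CPM in EpiSC and 134 to 304 CPM elsewhere, and of 9 mesendoderm markers it was 17.5 to 55.3 CPM in all libraries.

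Each of the 8 genes was last compared with 2070 others (2071 for Prdm1) whose group means spanned at least 2 log2 units and reached 10 CPM. Pearson r of log2 CPM over the 14 libraries is given as a description, since all genes share these libraries and their 7 groups. The 3 genes most alike were Pdgfa (r = 0.994), 1700061G19Rik (0.993) and Zfp600 (0.992) for Zfp42. For Tcl1 they were D630045M09Rik (0.995), Hormad2 (0.994) and Gbgt1 (0.994), and for Dppa4 Zc3hav1 (0.995), Rps4l (0.994) and Hsf2bp (0.993). Prdm14 was closest to Rnf17 (0.995), Phf11d (0.994) and Fbxo6 (0.99), and Dppa2 to Ncoa3 (0.994), Rfx2 (0.988) and Cited2 (0.987). Tfap2c was closest to Ctnnal1 (0.989), Slc2a9 (0.966) and Hydin (0.961), and Prdm1 to Fam19a5 (0.982), Ifitm1 (0.982) and Pla1a (0.98). Dppa3 had the loosest likeness, to Tnfrsf19 (0.9), Ina (0.873) and Zmat4 (0.865). Among the 8 genes themselves Prdm14 and Dppa2 were the most alike (0.97), then Tcl1 and Dppa4 (0.96) and Zfp42 and Tfap2c (0.94), and Dppa3 and Prdm14 were the least alike (-0.52).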

How the data were processed

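RNA was purified on columns with DNase and sequenced single-end from TruSeq libraries, per the labels' protocols. The deposited file holds unnormalized read counts by gene symbol, the sole input here. TopHat2, Subread, DESeq and mm9 appear in the submitters' processing notes, without version or order. Strand and the treatment of multi-mapped reads are not given. The table has 2 columns that no label matches, and they were left aside. Groups came from the sample titles.

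Counts were filtered with filterByExpr (16247 of 24015 names kept), TMM-scaled and fitted in R 4.3.3 with edgeR 4.0.16 (robust quasi-likelihood F test, 14 libraries, 1 mean per group, 2 libraries each); all 21 pairs of groups were read from this fit, so p-values reflect the spread of these cultures alone. The standard error is the absolute log2 fold change over the square root of F. Same-numbered replicates did not deviate together (correlations from -0.03 to 0.04 over 21 pairs of groups). RPKM used exon lengths from GENCODE M21, a later build, so lengths are approximate. The members, lists and comparisons were chosen with earlier results of these data known. Named genes are the 8 members, up to 4 genes of a list by smallest adjusted p, Kmt2a, and the 3 genes most alike to each member; others are marked. The fit was repeated with other scaling (RLE, library totals), unfiltered genes, DESeq2 1.42.0 (Wald test), the 4 compared libraries alone, a replicate block, counts thinned to the shallowest library in 1 draw, and without each library in turn.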

Additional observations from a re-analysis of the deposited data

How the results depend on the processing

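Over 168 pairs of a member gene and a comparison and 21 alternatives, 3463 of 3528 values kept the call, 50 lost it, 15 gained it and none of the called values changed sign. Counts of called members changed by more than 1.5 times in only 2 of the 12 main comparisons. From rES passage 6 to passage 30, where 2 members were called, 0 were with total counts and 0 in thinned counts, and leaving out 1 library gave 0 to 2 members and 2711 to 4449 genes, against 4167 (2711 and 2757 without rES passage 6 replicates 1 and 2). For rES passage 30 without MM401 against with it, where 5 members and 3200 genes were called, thinned counts gave 2078 genes, and leaving out 1 library gave 3 to 6 members and 1991 to 3514 genes (3 and 1991 without replicate 2 of the cells without MM401). The cause was not tested, except that thinning leaves fewer counts and a left-out library fewer samples.

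The replicate numbers are not stated to pair cultures. With a replicate block 12449 genes were called at MM401 day 3 against EpiSC in place of 12443, and 2 and 5 members in the 2 comparisons within rES passages, as without it; the block changed 1 call of a member among the 168, that of Dppa4 in rES without MM401 against MM401 P2.

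Scaling to total counts moved the median of all genes by more than 0.1 in the comparisons with EpiSC (for example from 0.00 to -0.17 at MM401 day 3 and from 0.00 to -0.15 in ESC), and the share of called genes that were higher fell from 50.6% to 38.6% at day 3, from 55.5% to 45.3% at P2, and from 43.9% to 33.3% from rES passage 6 to passage 30 (54.3% with RLE size factors). The member counts in the 5 main comparisons with EpiSC were the same under it. Depth limits Dppa3 most, at 72 to 174 counts in the rES libraries.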
